A study of Mus musculus with 8 samples.

Results

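Small RNA of sorted round spermatids was set against small RNA of whole adult testis lysate, feature by feature. The members were the 901 features listed with the same name and the same locus in both tables, out of 1014 features listed for round spermatids, 3005 listed beside the lysate and 6051 distinct features in the 4 tables used. The series held 8 samples in 7 groups that follow the purification of the chromatoid body, and 2 of those samples enter here, with 1 library each. The round spermatid library came from cells sorted from adult testes and carries the label hetMIWI, where MIWI is the mouse PIWI protein PIWIL1; the labels say no more about the allele. The lysate library came from adult testes whose tubule cells were freed with collagenase, cross-linked with formaldehyde and sonicated in RIPA buffer, and its labels name no allele. Both libraries were from C57BL/6 mice of at least 6 weeks, and in both the RNA was cut from a gel at 19 to 33 nt. The labels do not describe the sort or say whether the spermatids were cross-linked, so sorting, genotype and handling cannot be told apart between these libraries.

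Round spermatids are the haploid cells that leave meiosis and later condense into sperm. The testis makes 2 main kinds of small RNA. PIWI-interacting RNAs (piRNAs) are cut from long transcripts of piRNA clusters, bind PIWI proteins such as MIWI, and are abundant in meiotic spermatocytes and round spermatids. microRNAs are cut from short hairpins, bind Argonaute proteins and pair with messenger RNA through a seed near their 5′ end. Whole testis also holds spermatogonia, spermatocytes, Sertoli cells, Leydig cells, vessels and blood, each with microRNAs of its own. In bulk samples such as these, fewer cells of a type and less RNA per cell cannot be told apart.

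The mature microRNAs on which the comparison turns are given here from RefSeq (GRCm38.p6), which matched 225 of the 253 shared microRNA genes. Capitals mark the seed, bases 2 to 8. The tables list microRNA genes and do not say which arm of the hairpin was read. The first set belongs to Mir184, the leading microRNA gene of round spermatids, and to genes far lower there than in lysate.
mmu-miR-184-3p: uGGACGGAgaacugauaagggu
mmu-miR-184-5p: cCUUAUCAcuuuuccagccagc
mmu-miR-451a: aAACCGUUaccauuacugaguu
mmu-miR-19a-3p: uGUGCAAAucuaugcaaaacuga
mmu-miR-99a-5p: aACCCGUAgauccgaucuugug
The second set shares 1 seed, that of the miR-15 and miR-16 family, and is shown because its genes spread widely between the libraries.
mmu-miR-16-5p: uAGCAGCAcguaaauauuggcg
mmu-miR-15b-5p: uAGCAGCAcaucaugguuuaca
mmu-miR-15a-5p: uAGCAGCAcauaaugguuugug
mmu-miR-322-5p: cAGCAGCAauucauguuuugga
The third set is a pair of neighbouring genes with 1 seed that lay far apart.
mmu-miR-181d-5p: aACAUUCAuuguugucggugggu
mmu-miR-181c-5p: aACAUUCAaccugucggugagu
The fourth set holds the germ cell miR-34 and miR-449 family, in which Mir34b lay near the microRNA median and Mir449a and Mir449c far below it.
mmu-miR-34b-5p: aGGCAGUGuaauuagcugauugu
mmu-miR-449a-5p: uGGCAGUGuauuguuagcuggu
mmu-miR-449c-5p: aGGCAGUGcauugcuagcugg

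Levels are FPKM, fragment counts scaled by the authors to feature length and library size, and the 2 columns were normalized separately. Each column was therefore taken as log2(FPKM + 1) and centred on its own median over the 180 piRNA clusters, which was 669.8 FPKM in round spermatids and 948.6 FPKM in lysate. The difference given throughout is the centred value in round spermatids minus that in lysate, in log2 units, so 0 means that a feature kept its level relative to a typical piRNA cluster. With 1 library a side there is no replicate check and no test, and a difference of 1 or more, at least 2-fold, is counted. The files hold no counts. Reads were derived from the authors' test statistic and from the steps in low FPKM values, and came to 4021850 in round spermatids and 7003810 in lysate over 852 features. They are effective reads, the counts whose counting error alone would give the authors' standard error. They are thus too low where the authors allowed for more spread. Those of round spermatids also scale with a step that could be off 2-fold. The 95% intervals below are exact Clopper-Pearson intervals from those reads and cover counting error only. Levels and ranks of different genes are by FPKM, which is per length, unless reads are named. A high FPKM of a short feature can rest on few reads.

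Small RNA of piRNA clusters kept its rank order between the libraries, and microRNAs were lower in round spermatids as a class. The median difference of the 253 microRNA genes was -3.54, which is 11.6-fold, with quartiles of -5.17 and -1.75, and 226 of the 253 lay below 0. At least 2-fold lower were 212 microRNA genes, against 36.1% of all 901 features, and at least 2-fold higher were 10, against 9.32% of all features. The 212 include 15 genes listed at 0 in round spermatids, and the 10 include 2 listed at 0 in lysate. Their differences depend on the 1 FPKM added. The 180 piRNA clusters had a median of -0.11, with 12 at least 2-fold lower and 7 higher. Their median is not exactly 0 because the columns were centred before the difference was taken. Small structured RNA genes, such as small nucleolar RNA, stood between, with a median of -1.42 over 50 genes, 30 of them lower and 8 higher. Small RNA on 293 other named genes had a median of -0.16, with 50 lower and 36 higher. Transcripts assembled without annotation had 0.15 over 125, with 21 lower and 23 higher. The scale matters for the smaller values: centred on all shared features instead of piRNA clusters, the medians were -2.60 for microRNA genes, -0.48 for structured RNA genes, 0.78 for other named genes and 1.09 for assembled transcripts.

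**Figure D1:**
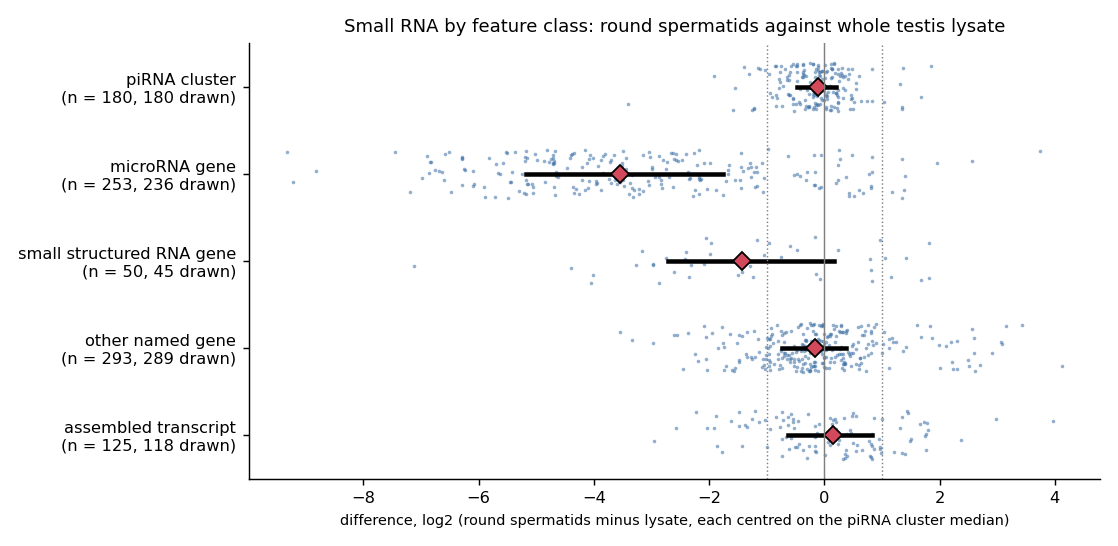
Centred log2 difference of each feature (horizontal axis, round spermatids minus lysate) by feature class (rows); points are features above 0 in both columns, the diamond is the class median and the bar the quartiles over all rows of the class. Dotted lines mark 2-fold. The microRNA median lies at -3.54, whereas the medians of piRNA clusters, other named genes and assembled transcripts lie between -0.16 and 0.15.

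The same shift appears in shares that need no common scale. Of the reads derived for shared features, microRNA genes held 0.470% in round spermatids, against 3.81% in lysate, whereas piRNA clusters held 94.5% in round spermatids and 92.4% in lysate. A microRNA gene had a median of 6.72 reads in round spermatids, against 206 in lysate. Depth on the spermatid side was thus low: 136 of 246 microRNA genes with derived reads had under 10 reads there, zeros included. Of the 233 with an interval, it lay wholly below 0 for 186 and wholly above 0 for 10. Among the 57 genes with at least 1000 lysate reads, none was 2-fold higher, 56 were at least 2-fold lower, and the median was -4.08. That cut uses lysate reads, and the lysate level is a term of the difference. It leaves out genes low in lysate, such as Mir184 with 993 lysate reads, and so favours lower values. Over all 246 genes with derived reads, 8 were at least 2-fold higher and the median was -3.61. Order was kept better within piRNA clusters than within microRNA genes, with a Spearman rank correlation of levels of 0.946 across 180 clusters and 0.740 across 253 microRNA genes; features are not independent replicates. Across the 236 microRNA genes above 0 in both columns, the difference had a rank correlation of -0.41 with the lysate level, which is itself a term of the difference, and 0.026 with the GC share of the hairpin over 202 genes.

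Few microRNA genes were higher in round spermatids. Mir184 (chromosome 9, 89697097 to 89697166, mm9) led that library. Mir184 had 828641 FPKM in round spermatids, against 300920 FPKM in lysate, or 2188 derived reads against 993. The difference was 1.96 with a counting interval of 1.85 to 2.07. It held 11.6% of microRNA reads in round spermatids, where it ranked first, and 0.373% in lysate, where it ranked 58th by reads. Mir92b, a gene of the miR-25 and miR-92 family, had 11614 FPKM in round spermatids, against 7313 FPKM in lysate. Its difference of 1.17 had an interval of 0.58 to 1.76. These were the clearest single genes outside near-identical copies, since both had over 40 reads on each side.

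Mir467d and Mir669c also stood above lysate, but they lie in a repeated array. Mir467d had 143662 FPKM in round spermatids, against 80155 FPKM in lysate, a difference of 1.34. Mir669c had 30524 FPKM in round spermatids, against 17083 FPKM in lysate, also 1.34. The array of near-identical hairpins spans 10292077 to 10516880 of chromosome 2, the authors' counting could divide reads among its genes, and Mir467b, Mir467a-6 and Mir4660 of the same array were listed at 0 in round spermatids. Summed over 6 genes of the array, the level was 184775 FPKM in round spermatids and 142320 FPKM in lysate, a difference of 0.88, so the array as a whole stayed under 2-fold. The muscle microRNA genes were higher from few reads. Mir1-2 had 3340 FPKM in round spermatids, against 797.3 FPKM in lysate, a difference of 2.57 (interval 0.41 to 5.41) from 8.33 reads against 2.48. Mir1-1 had 5469 FPKM in round spermatids and 2953 FPKM in lysate, a difference of 1.39 (interval 0.31 to 2.52) from 19.5 reads against 13.2. Mir1-1 and Mir1-2 give the same mature microRNA, so these values are not independent.

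The rest of the 12 highest could not be separated from 0 by counting, with 1 exception. Mir505 at 1.40, Mir487b at 0.82, Mir3062 at 0.82, Mir760 at 0.81 and Mir720 at 0.67 all had intervals that include 0. Mir505 rested on 2.83 reads in round spermatids and 1.88 in lysate. Mir2145-2, at 0.78, had an interval of 0.15 to 1.42. Mir1187 had a larger difference, 3.75, but at 64.9 FPKM in round spermatids and 5.93 FPKM in lysate it was under the 100 FPKM asked of named genes, and it was looked at after its value was seen. It rested on 1.23 reads in round spermatids and 0.14 derived reads in lysate.

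The lowest microRNA genes were nearly absent from round spermatids although abundant in lysate. Mir451, the red cell microRNA, had 1016 FPKM in round spermatids, against 919334 FPKM in lysate, or 3.25 reads against 3675. Its difference was -9.32 (interval -11.48 to -7.83). Mir19a of the miR-17-92 cluster, a growth-associated polycistron, had 223.6 FPKM in round spermatids, against 189328 FPKM in lysate, or 0.95 reads against 1007. Its difference was -9.22 (interval -14.75 to -6.69). Mir99a had 1406 FPKM in round spermatids, against 905057 FPKM in lysate, or 3.09 reads against 2486, a difference of -8.83 (interval -11.06 to -7.30). Among 253 microRNA genes, Mir451 ranked 142nd in round spermatids and 10th in lysate, Mir19a 202nd and 54th, and Mir99a 123rd and 11th, by FPKM.

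The other 9 of the 12 lowest spanned -7.45 to -6.68. They were Mir19b-2, Mir301, Mir138-1, Mir322, Mir29b-1, Mir181c, Mir199a-1, Mir511 and Mir449c, with at most 10 reads in round spermatids and 23.5 to 2053 reads in lysate. No upper bound of their intervals lay above -1.59. For some of them the value of the lysate depends on the table. The same lysate library is listed again beside an immunoprecipitation labelled ACR, and 40 of 213 microRNA genes listed there were off by at least 2-fold after the shift of the piRNA clusters. With that column Mir29b-1 had 1.92 and Mir199a-1 1.67, which turns their direction, and Mir19b-2 had -1.71. These 3 have further numbered copies in the genome.

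The 10 highest microRNA genes of round spermatids by FPKM were led by Mir184, after which came Mir469, Mir191, Mir16-1, Mir16-2, Mir15b, Mir34c, Mir375, Mir467d and Mir741. Mir469 had 272881 FPKM in round spermatids and 410051 FPKM in lysate, a difference of -0.09 (interval -0.21 to 0.03). Its locus is that of piRNA cluster 39 (chromosome 5, 115300314 to 115302629), which had 0.00, so gene and cluster had nearly the same difference. In the ACR table the lysate level of Mir469 was 432.6 FPKM, and the difference with that column was 9.45. Mir191 had 260404 FPKM in round spermatids and 1850190 FPKM in lysate, a difference of -2.33. Mir375 had 149228 FPKM in round spermatids and 1027620 FPKM in lysate, a difference of -2.28. Mir741, of the X-linked testis cluster, had 118970 FPKM in round spermatids and 1091190 FPKM in lysate, a difference of -2.70. These were higher than the microRNA median while still lower than piRNA clusters.

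Mir34c ranked 7th among microRNA genes in round spermatids and first in lysate. It had 175682 FPKM in round spermatids, against 9444380 FPKM in lysate, or 682 reads against 45809, and the difference was -5.25 (interval -5.36 to -5.14). It made up 3.61% of microRNA reads in round spermatids and 17.2% in lysate. Mir449a ranked 75th among microRNA genes by FPKM in round spermatids and 8th in lysate.

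**Figure D2:**
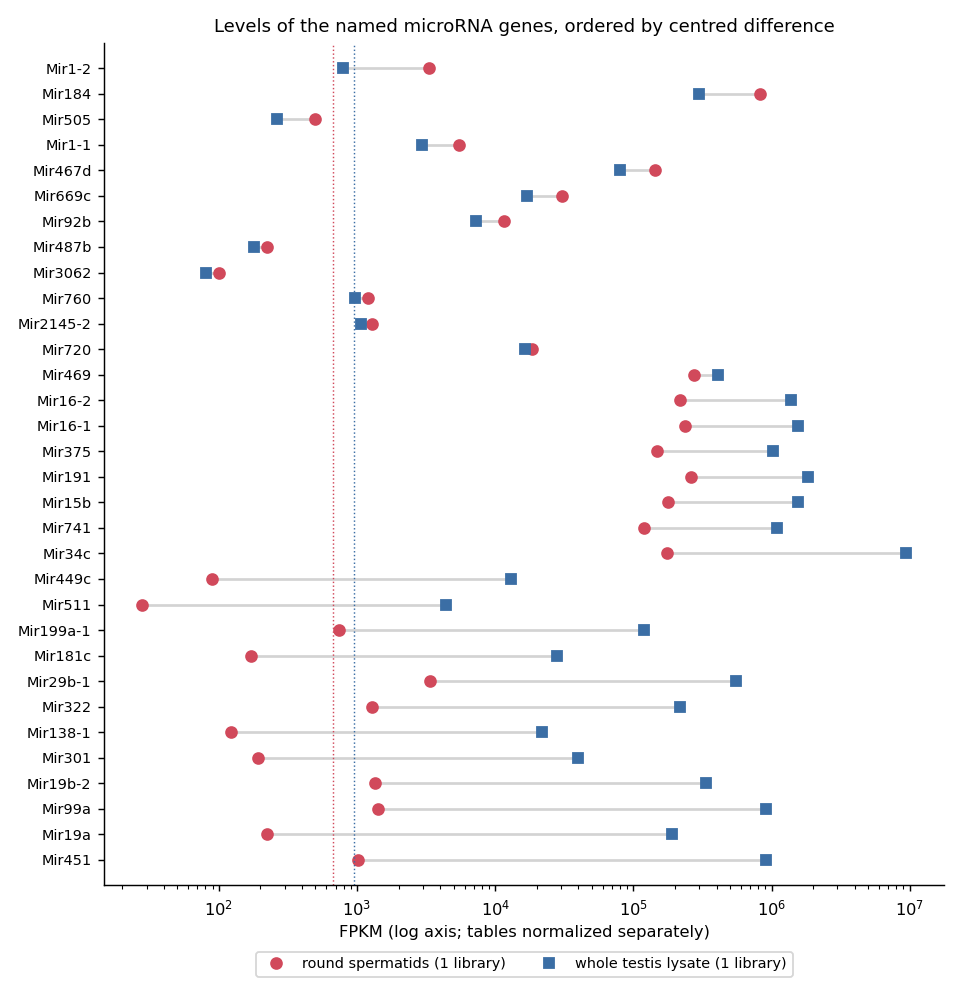
FPKM of the named microRNA genes on a log axis, circles for round spermatids and squares for whole testis lysate (1 library each), ordered by centred difference from highest at the top; dotted lines mark the piRNA cluster median of each column (669.8 and 948.6 FPKM). Mir184, at 828641 FPKM, is the highest of the round spermatid points, and Mir451 at the bottom has 1016 FPKM in round spermatids and 919334 FPKM in lysate.

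Because nearly all microRNA genes were lower, families are described relative to the microRNA median of -3.54. On that scale 86 of 253 genes (34%) lay at least 2-fold above the median and 90 (35.6%) at least 2-fold below. The miR-34 and miR-449 family, known for its roles in meiosis and spermatid differentiation, was below the class. Its 4 shared genes had a median of -5.93, or -2.39 relative to the class, and 3 of the 4 lay at least 2-fold below it. Mir34b had 74923 FPKM in round spermatids and 1420120 FPKM in lysate, a difference of -3.74. Mir449a had 7516 FPKM in round spermatids and 1039610 FPKM in lysate, a difference of -6.61. Together the family held 5.94% of microRNA reads in round spermatids, against 24.1% in lysate. Mir34a, listed at 207715 FPKM in lysate, and Mir449b had no partner among the features listed for round spermatids.

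The let-7 family, which restrains growth and pluripotency genes in many tissues, stayed near the class. Its 12 genes lay between -5.37 and -2.83, with a median of -3.35, and 10 of the 12 were within 2-fold of the microRNA median. Relative to the class the median was 0.19, and with the ACR lysate column it was 1.36. It held 10.1% of microRNA reads in round spermatids and 12.5% in lysate. Mirlet7c-1 and Mirlet7c-2, which give 1 mature sequence, had -3.02 and -3.05. Mirlet7i, at 4782 FPKM in round spermatids and 280879 FPKM in lysate, was the lowest with -5.37, and Mirlet7d had -4.65.

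The miR-15 and miR-16 family shares the seed printed above and did not move as one. Mir16-1 had 236154 FPKM in round spermatids and 1547160 FPKM in lysate, a difference of -2.21, and Mir16-2 had -2.17. Mir15b had -2.62, Mir195 -2.99, Mir15a -5.30, Mir497 -5.92 and Mir322 -6.90, so genes of 1 seed spanned 4.73 log2 units. The family median was -2.99, or 0.55 relative to the class, which turned to -0.25 with the ACR lysate column and to -1.85 without genes that have copies. It held 20.9% of microRNA reads in round spermatids, against 15.4% in lysate. The Mir16 values also depend on the table: Mir16-1 and Mir16-2 share a mature sequence, the ACR table lists the lysate at far lower values for both, and with that column the differences are 1.52 and 3.26. Mir15a, at 15454 FPKM in round spermatids and 859639 FPKM in lysate, had 747194 FPKM in the ACR lysate column.

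Other families with many members also straddled the class median. The miR-30 family had a median of -2.60 over 6 genes, with Mir30c-1 at -1.20 and Mir30c-2 at -1.29, which share a mature sequence, and with Mir30a at -3.85. The miR-10, miR-99 and miR-125 family had -4.63 over 8 genes, led downward by Mir99a at -8.83 and Mir99b at -6.25, with Mir125a at -2.08. The miR-200 family, marked by epithelial cells, had -4.15 over 5 genes and ran from Mir141 at -6.09 to Mir200c at 0.51. The miR-17-92 group and its paralogs had -5.63 over 11 genes, with Mir18 at -2.25, Mir25 at -1.44 and Mir93 at -5.63. Mir19b-1 of that group was listed at 0 in round spermatids and at 297816 FPKM in lysate. Mir19b-1 and Mir19b-2 give the same mature microRNA, and Mir19b-2 was at 1345 FPKM in round spermatids and 334125 FPKM in lysate.

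The X-linked testis microRNAs, which lie side by side and are best known from germ cells, numbered 19 here, and their median difference was -3.88, or -0.34 relative to the class. With the ACR lysate column the relative median was -1.51, and among genes of at least 100 lysate reads it was 0.25. They ranged from Mir201 and Mir742 at -6.29 to the Mir465 copies. Mir871 had 88456 FPKM in round spermatids and 304516 FPKM in lysate, a difference of -1.28. Mir743 had 27242 FPKM in round spermatids and 793762 FPKM in lysate, a difference of -4.36. The Mir465 copies, summed over 4 genes, were at 221391 FPKM in round spermatids and 399272 FPKM in lysate, a difference of -0.35. All 42 X-linked microRNA genes had a median of -3.16, against -3.57 for 210 autosomal genes, so position on the X chromosome did not set a gene apart by more than the spread of either set.

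Markers of other cells were mostly lower in round spermatids than in lysate, some of them no lower than the class. The erythrocyte list held Mir451, Mir144 and Mir486. Mir144, which lies beside Mir451, was listed at 0 in round spermatids and at 57824 FPKM in lysate, and Mir486 had 130.5 FPKM in round spermatids and 4120 FPKM in lysate. By reads the 3 genes held 0.0306% of microRNA reads in round spermatids, against 1.48% in lysate. Of 5 vessel wall and fibroblast genes, all were at least 2-fold lower, as were 83.8% of all microRNA genes, with a median of -6.29, or -2.75 relative to the class; with the ACR lysate column the relative median turned to 0.90. Mir126, of endothelial cells, had 1621 FPKM in round spermatids and 180221 FPKM in lysate, a difference of -6.29. Mir145 and Mir143, of smooth muscle, had -1.89 and -3.32 and so lay above the microRNA median. Mir202, a gonadal microRNA of Sertoli cells, had 8128 FPKM in round spermatids and 531875 FPKM in lysate, a difference of -5.53.

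White cell and spermatogonial microRNAs were few. Mir142 of blood cells had 2955 FPKM in round spermatids and 131999 FPKM in lysate, a difference of -4.98. Mir150 had -1.41 and Mir155 -0.05, from 7.02 and 19.4 reads in round spermatids. The spermatogonial list had 3 shared genes: Mir222 was listed at 0 in round spermatids and at 1814 FPKM in lysate, Mir221 had -5.02 and Mir146 -3.95. The imprinted Meg3 to Mirg locus, whose microRNAs are expressed in somatic and early germ cells, had 14 shared genes of 35 listed beside the lysate. Their median was -3.20, and 4 of them, Mir382, Mir434, Mir337 and Mir540, were listed at 0 in round spermatids. Over all microRNA genes, 253 of the 363 listed beside the lysate were shared, and 15 of the 253 were at 0 in round spermatids. The part of other cell types in the class difference was not tested.

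**Figure D3:**
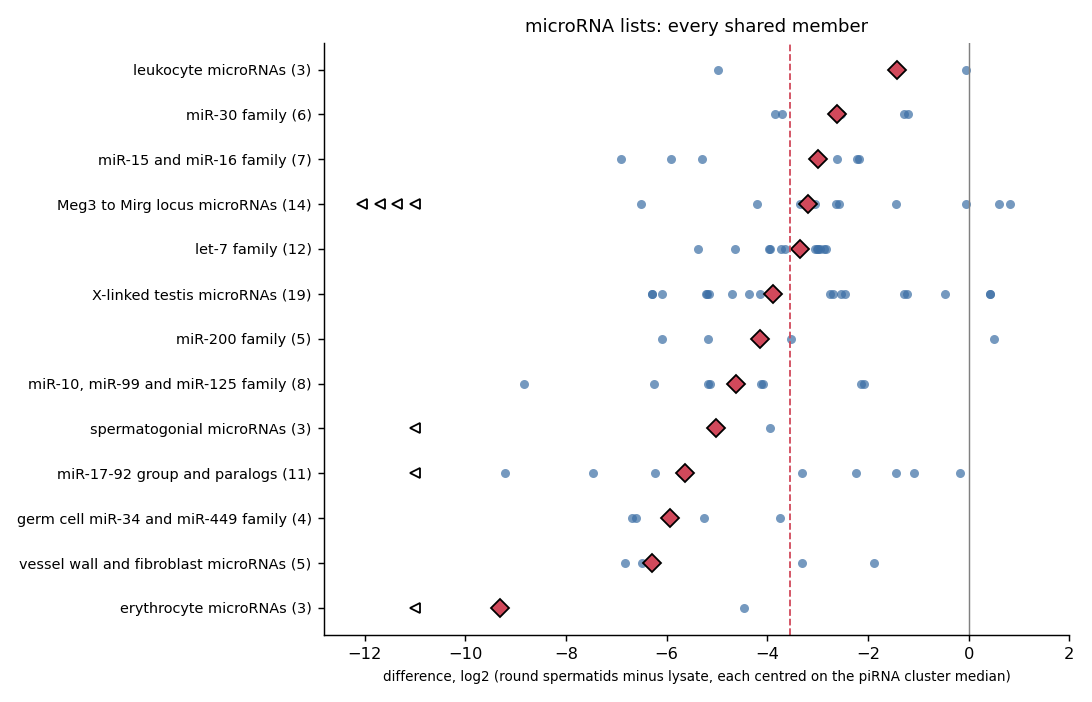
Centred log2 difference (horizontal axis, round spermatids minus lysate) of every shared member of 13 microRNA lists, with the number of members in brackets; circles are genes, diamonds list medians, open triangles at the left edge genes listed at 0 in round spermatids, and the dashed line the microRNA median of -3.54. The erythrocyte list has the lowest median, -9.32, the leukocyte list the highest, -1.41, and most lists cross the dashed line.

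Genes transcribed close together did not share 1 difference. Among microRNA genes whose starts lay within 10 kb of the next, 40 groups had at least 2 genes above 0 in both columns, 117 genes in all. The median range within a group was 1.80, with 17 groups spanning at least 2 and 9 under 1. The interquartile range over all microRNA genes was 3.42. These measures are unlike, since a full range grows with group size and counting error. They do not tell whether neighbours are more alike than other genes. In the miR-17-92 cluster on chromosome 14 (115442892 to 115445950) Mir18 had 45179 FPKM in round spermatids and 303256 FPKM in lysate, a difference of -2.25 (interval -2.41 to -2.09). In the same cluster Mir20a had 4715 FPKM in round spermatids and 502868 FPKM in lysate, a difference of -6.23 (interval -6.65 to -5.85). These neighbours lie within 1 primary transcript in mouse, and their counting intervals do not meet.

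Wide ranges recurred at other loci. On chromosome 16, Mir99a had -8.83, from 3.09 reads in round spermatids, and its neighbour Mirlet7c-1 had -3.02, which is 5.81 apart. On chromosome 8, Mir181c had 171.8 FPKM in round spermatids and 28044 FPKM in lysate, a difference of -6.84, while Mir181d, with the same seed, had 4064 FPKM in round spermatids and 7180 FPKM in lysate, a difference of -0.32. Their intervals, -12.08 to -4.36 and -1.40 to 0.68, do not meet. On chromosome 6, Mir141 had -6.09 and Mir200c 0.51. Mir141 rested on 0.53 reads in round spermatids (interval -15.63 to -2.87). Within 13 neighbouring X-linked testis genes the range was 5.01, from Mir742 at -6.29 to Mir871 at -1.28. Mir742 rested on 2.17 reads in round spermatids (interval -9.17 to -4.49). In other groups the values lay close. Mir30b and Mir30d differed by 0.13, from over 100 reads each in both libraries. Mir182 and Mir183 differed by 0.023 and Mir449a and Mir449c by 0.074, but Mir182, Mir183 and Mir449c had 8.27, 8.38 and 1.054 reads in round spermatids, too few to resolve such a difference.

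**Figure D4:**
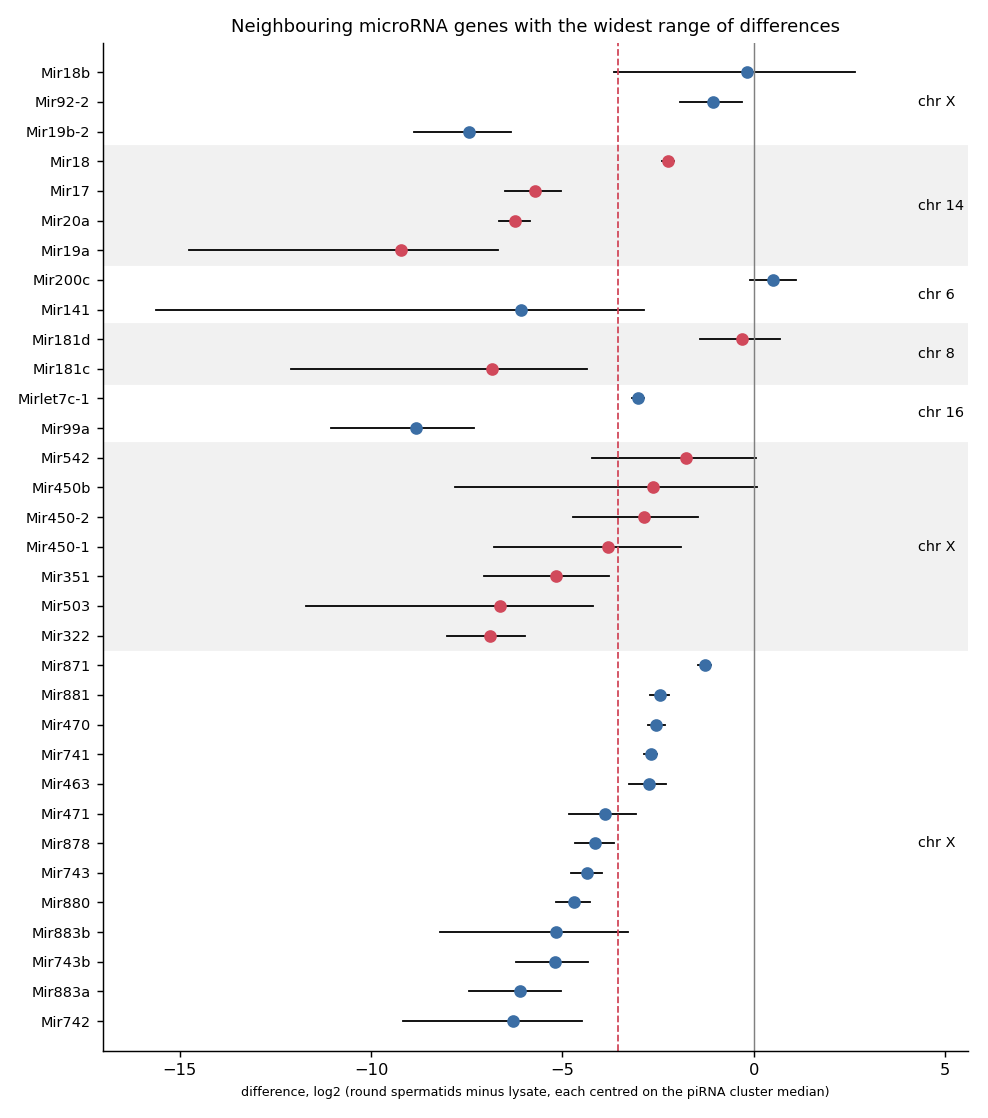
Centred log2 difference (points) with 95% counting interval (lines) for genes of the 7 groups of neighbouring microRNA genes with the widest ranges, grouped by band with the chromosome at right; genes listed at 0 are left out and the dashed line is the microRNA median of -3.54. Mir18 lies at -2.25 with an interval clear of its neighbours Mir17 at -5.72 and Mir20a at -6.23.

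Some features were seen on 1 side only. Among shared features 25 were listed at 0 in round spermatids, 15 of them microRNA genes, and 8 were listed at 0 in lysate. After Mir19b-1 and Mir144, the highest lysate levels among the 15 were those of Mir138-2 (38762 FPKM), Mir3068 (13504 FPKM) and Mir4660 (10008 FPKM). Listed at 0 in lysate were 2 microRNA genes, Mir3058 at 159.9 FPKM and Mir1971 at 48.6 FPKM in round spermatids. The highest of these 8 was Scarna17, a small Cajal body RNA gene, at 14166 FPKM in round spermatids. No fold is given for them, though they enter the class medians and counts above.

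piRNA clusters, which served as the scale, differed among themselves by little. Their interquartile range was 0.67, and counting error is small here, since a cluster had a median of 5862 reads in round spermatids and 9976 in lysate. The leading clusters were shared: clusters 196, 9 and 96 had the 3 highest read numbers in both libraries, and cluster 196 held 5.25% of all derived reads in round spermatids and 5.11% in lysate. By FPKM the leaders were cluster 79 (chromosome 8, 94713346 to 94717740) at 5174 FPKM in round spermatids and 6340 FPKM in lysate, a difference of 0.21, then clusters 91, 39, 189 and 107.

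A few clusters stood apart. Cluster 91 (chromosome 9, 67578034 to 67591728) had 4485 FPKM in round spermatids, against 2483 FPKM in lysate, a difference of 1.35, and ranked 6th by reads in round spermatids and 22nd in lysate. Cluster 49 (chromosome 6, 85060730 to 85076088) had 2535 FPKM in round spermatids, against 1124 FPKM in lysate, a difference of 1.67. Cluster 113 had 1879 FPKM in round spermatids and 1046 FPKM in lysate, also 1.35. On chromosome 14, between 45392438 and 45558106, cluster 158 had 1.85, cluster 160 had 1.37, cluster 149 had 1.31 and the assembled transcript Cuff.1558 1.35, while cluster 159 between them had 0.16. The features of that stretch were grouped after their values were seen.

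The lowest cluster by far was cluster 177 (chromosome 17, 39983504 to 39984882), a ribosomal RNA-like locus whose small RNA need not be piRNA. It had 740.3 FPKM in round spermatids, against 11080 FPKM in lysate, a difference of -3.40 (interval -3.46 to -3.34). Cluster 16 had 43.7 FPKM in round spermatids and 237.9 FPKM in lysate, a difference of -1.92. The gene 1700006A11Rik has the same locus as cluster 16 and had -0.48, so the 2 entries of that locus differ. Likewise Gm5878 has the locus of cluster 49 and had -0.42. Clusters 29, 193 and 180 had -1.59, -1.55 and -1.39. The low ones were mostly short: split into 3 equal sets by locus length, 10 of the 12 clusters at least 2-fold lower were in the shortest set, of 1010 to 2058 bp, which had a median of -0.43. The middle set had -0.02 and the longest -0.05. Across the 180 clusters the rank correlation with locus length was 0.32 and with lysate level 0.34, and short clusters were also the weaker ones, with a median of 150.1 FPKM in round spermatids and 284.6 FPKM in lysate.

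**Figure D5:**
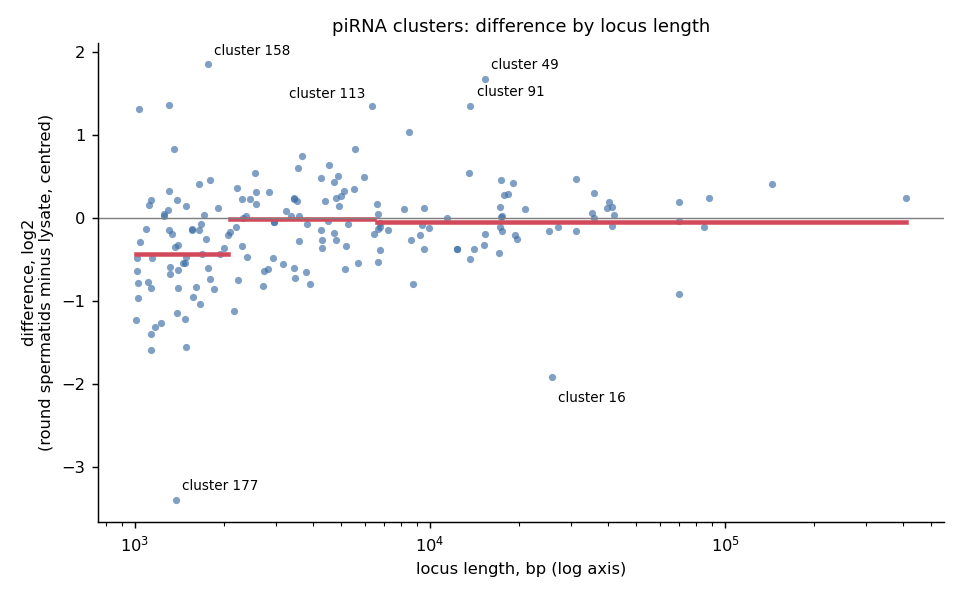
Centred log2 difference of the 180 piRNA clusters (vertical axis, round spermatids minus lysate) by locus length in bp (log axis); thick lines are the medians of the shortest, middle and longest of 3 equal sets of clusters (-0.43, -0.02 and -0.05). Clusters 158 and 49 stand highest at 1.85 and 1.67, and cluster 177, a ribosomal RNA-like locus, lowest at -3.40.

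Small RNA on other named genes lay near 0 on average with a tail on each side. Tmem38b, which encodes a cation channel of the endoplasmic reticulum (chromosome 4, 53838916 to 53874890), stood far apart. It had 8807 FPKM in round spermatids, against 716.4 FPKM in lysate, or 66687 reads against 6780, and its difference was 4.12 (interval 4.08 to 4.16). Cenpj, a centriole gene, had 38.7 FPKM in round spermatids and 4.203 FPKM in lysate, a difference of 3.43 (interval 3.01 to 3.88). Prkcq, Prodh2 and Morc4 had 3.15, 3.08 and 3.06. Kit, the spermatogonial receptor gene, had 25.05 FPKM in round spermatids and 5.27 FPKM in lysate, a difference of 2.56 (interval 2.20 to 2.93). Small RNA on a gene is not its messenger RNA level.

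Among the lower genes, A130040M12Rik had -2.62 and 1810035L17Rik -2.56. Prm1, which encodes protamine 1, had 26.8 FPKM in round spermatids, against 398.0 FPKM in lysate, a difference of -3.34 (interval -4.18 to -2.60). Ldhc, the germ cell lactate dehydrogenase gene, had 18.3 FPKM in round spermatids and 79.3 FPKM in lysate, a difference of -1.55. Of 21 spermatid nuclear and sperm tail genes listed beside the lysate, these 2 had a partner in round spermatids. Over the whole class of other named genes, 293 of 1893 listed beside the lysate had one. Prm2 at 273.7 FPKM, Tnp1 at 224.2 FPKM and Tnp2 at 140.6 FPKM in lysate had no partner. Of 10 ribosomal protein genes shared, out of 67 listed beside the lysate, 6 were at least 2-fold lower and 1 higher, with a median of -1.38, where 17.1% of all other named genes were lower and 12.3% higher. Rplp1 had 10.8 FPKM in round spermatids and 68.3 FPKM in lysate, a difference of -2.05, whereas Rps27a had -0.20. The 3 histone genes shared were all at least 2-fold lower, with Hist1h2ba at -1.74 and Hist1h2aa at -2.97.

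Small RNA on marker genes could therefore check the label of the sorted cells only weakly. Among the shared markers above, the spermatogonial gene Kit was higher, at 2.56. The spermatid genes Prm1 and Ldhc were lower, at -3.34 and -1.55. Leydig cell, Sertoli cell, spermatocyte and house-keeping genes had 2, 1, 5 and 6 members listed beside the lysate and none in round spermatids. Over the whole class of other named genes, 1600 of 1893 listed beside the lysate had no partner. These absences thus do not set the lists apart. Of the PIWI, Tudor and vasa pathway, 2 of 9 genes listed beside the lysate had partners: Ddx25, an RNA helicase gene of round spermatids, had 11.5 FPKM in round spermatids and 31.9 FPKM in lysate, a difference of -0.90, and Eif2c2, the Argonaute 2 gene, had -0.74. Tex101 was the single acrosome list gene shared and had -0.09. Eif2c2 was 1 of 11 named genes that have the locus of a piRNA cluster; these had a median of -0.73, with 3 at least 2-fold lower and none higher. The other 282 had a median of -0.15, with 47 lower and 36 higher.

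Small structured RNA genes were lower on balance but from few reads. C/D box small nucleolar RNA genes, which guide methylation of ribosomal RNA, had a median of -1.42 over 35 genes, 22 at least 2-fold lower and 5 higher, where 60% of all structured RNA genes were lower and 16% higher. Snord2 had 1625 FPKM in round spermatids, against 319479 FPKM in lysate, a difference of -7.12 (interval -8.97 to -5.77) from 4.08 reads against 1003. Rnu11, of the minor spliceosome, had 594.5 FPKM in round spermatids and 17672 FPKM in lysate, a difference of -4.39. Rnu1b2, of the major spliceosome, had 1297 FPKM in round spermatids and 820.3 FPKM in lysate, a difference of 1.16 (interval 1.09 to 1.23) from 3667 reads against 2900. Snord93, Snord67, Snord65 and Snord52, the other 4 of the 5 highest, had 1.82, 1.81, 1.67 and 1.41, and no interval that could be derived for them lay clear of 0. A structured RNA gene had a median of 2.00 reads in round spermatids, against 12.7 in lysate.

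Assembled transcripts, named with Cuff and a number, had quartiles of -0.63 and 0.82 around their median of 0.15. Cuff.1366 was the highest above 0 in both columns, at 30.7 FPKM in round spermatids and 1.86 FPKM in lysate, a difference of 3.97 (interval 2.22 to 6.52). Cuff.4384 was the lowest with -2.96 (interval -8.86 to -0.14). A run of strong transcripts on chromosome 2 (151077379 to 151239124) held Cuff.2814 at 13231 FPKM in round spermatids and 17532 FPKM in lysate, a difference of 0.10, Cuff.2816 at 0.83 and Cuff.2820 at 8610 FPKM in round spermatids and 5261 FPKM in lysate, a difference of 1.21. These 3 were picked after their values were seen.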

How the data were processed

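Small RNA libraries of sorted round spermatids and of testis lysate were compared, 1 sample each. Per the submitters' processing notes, TopHat and Cuffdiff were used with the mm9 build; the notes give no version that is used here. The values are FPKM, which the authors computed per feature, per the file headers. The test statistic that the authors deposited for supernatant against lysate was used as a score, from which read numbers were derived. Their steps were not recorded in the files, and the round spermatid step rests on 98 of 888 features that fell on it, against 89 and 90 at steps of other size, so read numbers and intervals are approximate. Of 46 low microRNA rows, with 0.7 to 10 derived reads, 45 lay within 15% of a whole number. That window widens with the read number and takes in any value at the upper end, so the count of 45 cannot check the step. By a fixed distance in reads, the same for every row, 31 of the 46 lay near a whole number.

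Features were joined by name and locus, and kept at 1 FPKM or more in either column; all 901 passed. Levels were log2(FPKM + 1), centred on the piRNA cluster median. Named features were the 12 highest and 12 lowest microRNA genes with at least 100 FPKM in either column, the 10 highest levels, the 5 highest and lowest of each other class, above 0 in both, the 5 highest piRNA cluster levels, up to 4 members of each list and the highest features listed at 0 on 1 side. Neighbours, copies and further list members named beside them were picked with their values seen. Of the genes this rule selects, 1 is not reported here. The members and the 26 gene lists were chosen with earlier results of these data known. The steps were tested on simulated data. There a read step 2-fold too large or too small also counted as found, so that test did not check the size of the read step. A further 4 columns of values were not used. Intervals have a level of 95%. Python 3.11.15 was used, with matplotlib 3.10.9 for plots, scipy 1.17.1 for intervals and correlations, and pandas 2.3.3 and numpy 2.4.6 for the rest.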

Additional observations from a re-analysis of the deposited data

How the results depend on the processing

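Under the settings run, the microRNA median stayed between -4.13 and -2.60. Over all settings, class medians, list medians and counts stayed within 1.5 times of the value reported 189 times and moved further 41 times, in part with a change of sign, and 1 value past 2-fold, that of the vessel wall list, changed sign. None of these 23 values moved that far with the lysate of the supernatant table, without a filter, with a pseudocount of 0.1 or when centred on the sum of the piRNA clusters, though 4 named features did with the supernatant table and 19 with that pseudocount. Part of this was fixed in advance. Every feature passes the filter, and the supernatant table lists the lysate at a near-constant factor, which centring largely removes. List medians relative to the class do not depend on the centre. The 189 includes such cases and is thus no measure of stability. List medians below are relative to the microRNA median, and the cause of the shifts was not tested. Centred on all features, the medians were -2.60 for microRNA genes, -0.48 for structured RNA genes, 0.78 for other named genes and 1.09 for assembled transcripts, with 27 microRNA genes higher. With at least 10 FPKM in both columns the miR-17-92 median was -1.01, and with no pseudocount -1.004. At loci of at least 200 bp, 84 microRNA genes were lower and 5 higher, and let-7 had -0.61 and miR-17-92 -1.14.

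With the lysate column of the ACR table the microRNA median was -2.89, 29 microRNA genes were higher and 12 piRNA clusters were at least 2-fold above their own median. List medians were -3.18 for miR-34 and miR-449, -1.51 for X-linked, 1.36 for let-7, -0.25 for miR-15 and miR-16, 0.074 for miR-30, -1.41 for miR-200, -0.89 for Meg3 to Mirg, 1.33 for leukocyte and -2.28 for spermatogonial microRNAs, and 0.90 for vessel wall microRNAs. The sign changed for the vessel wall, miR-15 and miR-16, and Meg3 to Mirg lists, and for Mir29b-1 at 1.92, Mir199a-1 at 1.67, Mir16-1 at 1.52, Mir16-2 at 3.26 and Mir469 at 9.45. Without genes that have copies, let-7 had -0.51, miR-17-92 -1.02, miR-15 and miR-16 -1.85, miR-10, miR-99 and miR-125 -1.71, miR-30 0.26 and vessel wall -1.36. Among features with at least 100 derived lysate reads, a setting chosen after seeing the data, the medians were -4.13 for microRNA and -2.98 for structured RNA genes, with 140 microRNA genes lower and 3 higher. A cut on lysate reads itself favours lower values, since it leaves out features low in lysate. The list medians were then -1.80 for miR-34 and miR-449, 0.25 for X-linked, 0.79 for let-7, 1.14 for miR-15 and miR-16, -0.49 for miR-10, miR-99 and miR-125, 1.53 for miR-30, -5.19 for erythrocyte and -2.16 for vessel wall microRNAs.

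No paired analysis was possible because each group has 1 library. Depth limits the spermatid side most, where 136 of 246 microRNA genes had under 10 derived reads.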

Other observations

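Features without a partner held a small share of the summed FPKM: 113 features listed for round spermatids alone held 0.118% of that table's FPKM, and 2104 listed beside the lysate alone held 1.16%. FPKM is per length, so these are not shares of reads, which were not summed for such features. The highest microRNA genes among the first were Mir1969 at 575.9 FPKM and Mir3086 at 554.7 FPKM in round spermatids, and the highest among the second was Mir34a at 207715 FPKM in lysate.

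The level of the lysate was listed 2.39-fold higher in the table with the pellet than in the table with the supernatant, a constant factor over 888 features. Beside the ACR immunoprecipitation 69 of 782 features departed from the common factor by at least 2-fold.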
